A study of Homo sapiens with 12 samples.

Results

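The comparison described here is the knockdown of NR0B1 in A549 cells against its own control. It covers 6 of the 12 libraries of the series: 3 knockdown libraries, whose cells carry a hairpin directed at NR0B1 (shNR0B1), and 3 knockdown control libraries with the hairpin shNC, which the labels also call wild type. The members were chosen by those labels alone, and the other 6 libraries, NR0B1 overexpression and its control, entered the filter on low values and the estimate of the spread; values of the overexpression control are also set beside those of single chromosomes. A549 is a human non-small cell lung cancer line. All groups are this line with no treatment listed, and each library was made from mRNA enriched out of 3 µg of total RNA, per the labels. The labels do not say which stretch of NR0B1 the hairpin targets, whether the cells were a pool or 1 clone, how long after transduction they were collected, or whether the 3 replicates were separate cultures, so the p-values may measure only technical spread between these samples.

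NR0B1, also called DAX1, is an orphan member of the nuclear receptor family. It lacks the usual DNA-binding domain and acts mainly as a corepressor, by binding other nuclear receptors such as NR5A1 and holding them inactive, and it is best known from adrenal and gonadal development. The A549 line carries an inactivating mutation of KEAP1, the adaptor that marks the oxidative stress factor NRF2 for degradation, so NRF2 is constantly active and NR0B1 is among the genes that depend on it there. The title of the series names glutathione metabolism and ferroptosis, a cell death driven by iron-dependent oxidation of membrane lipids. Short hairpin RNAs are processed to small interfering RNAs that guide cleavage of the matching transcript.

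The targeted gene was examined first. NR0B1 (ENSG00000169297, GRCh38 chromosome X from 30304206 to 30309598, minus strand, protein coding) stood at 2.98, 3.31 and 5.83 CPM in knockdown replicates 1 to 3 and 16.2, 21.1 and 13.2 CPM in the controls. CPM are counts scaled to a common library size. Every knockdown library lay below every control library, and replicate 3 kept the most transcript. The fall was 4.18-fold (log2 fold change -2.06, standard error SE 0.42, adjusted p = 0.00593; adjusted p-values come from the edgeR quasi-likelihood fit, by Benjamini-Hochberg). A two-sided exact permutation test on the CPM gave p = 0.1, the smallest value that 3 against 3 libraries allow, and without knockdown replicate 2 the log2 fold change was -1.95 (adjusted p = 0.0165).

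The 6 libraries held between 18639754 and 22797076 expected counts, so that 3 counts correspond to 0.154 to 0.184 CPM. Knockdown replicate 2 stood apart from replicates 1 and 3. The mean absolute log2 difference over genes was 0.48 between replicates 1 and 2, 0.391 between 1 and 3 and 0.606 between 2 and 3, against 0.211 to 0.257 among the controls and 0.517 to 0.631 between a knockdown and a control library. The first principal component of the 6 libraries (46.3% of the variance) separated knockdown from control and the second (29.7%) separated knockdown replicate 2 from replicate 3, with replicate 1 between them. Over 9109 genes at 10 CPM or more in both groups, the median coefficient of variation was 17.3% among the knockdown libraries and 7.43% among the controls. The repeat without replicate 2 was set before this comparison, because its interferon genes were known to be high from earlier results. Results that rest on replicate 2 are given with and without it.

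Over all 11908 genes tested, 2851 were called at an adjusted p below 0.05, which is 23.9%. Higher in the knockdown were 1479 (12.4% of the genes tested) and lower 1372 (11.5%). A change of at least 2-fold was called in 938 (7.88%), 593 higher (4.98%) and 345 lower (2.9%). Higher genes were 51.9% of the calls, and 41.1% with limma on the deposited FPKM, log2(FPKM + 1). The median log2 fold change of all genes tested was 0.03. The knockdown and control libraries did not overlap in 4869 genes (40.9%), with the knockdown above in 2410 (20.2%) and below in 2459 (20.6%), whether or not the gene was called. In 2763 called genes (23.2% of those tested) the knockdown and control libraries did not overlap, so that all 3 knockdown libraries shared the change: 1401 lay above the controls (11.8%) and 1362 below (11.4%). Without knockdown replicate 2, 3435 genes were called (28.8%), 1690 higher (14.2%) and 1745 lower (14.7%), and 2400 were called in both fits, which is 84.2% of the calls with all libraries and 69.9% of those without replicate 2. The 2 fits called 0 genes in opposite directions. Of the 2763 shared changes 2355 (19.8% of genes tested) were called again without replicate 2, 1153 higher (9.68%) and 1202 lower (10.1%). The counts depended on the controls: without knockdown control replicate 1, 2 or 3 the fit called 1708, 1897 and 1503 genes. 1319 genes (11.1% of those tested, 623 higher and 696 lower) kept their call when any 1 of the 12 libraries was left out. Genes named below as having risen or fallen belong to these 1319 unless the libraries that end their call are given.

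The rises that repeated best across libraries were large and came from several functions. FSTL1, a secreted glycoprotein that binds BMP and TGF-beta family ligands, stood at 203, 237 and 209 CPM in knockdown replicates 1 to 3 and 57.3, 58.9 and 48.8 CPM in the controls (1.98, SE 0.13 on the log2 scale, adjusted p = 2.8e-05). SYT13, an atypical synaptotagmin of vesicle traffic, stood at 317, 386 and 269 CPM in knockdown replicates 1 to 3 and 41.6, 41.1 and 36.9 CPM in the controls (log2 fold change 3.02 with SE 0.20, adjusted p = 2.94e-05). In both genes every knockdown library was far above every control. PCNA, the sliding clamp of DNA polymerases and a p53 target, had the narrowest spread of the genes in this group, with 487, 468 and 483 CPM in the knockdown and 186.8 to 200 CPM in the controls (log2 fold change 1.32 with SE 0.094, adjusted p = 3.94e-05). SDC1 and SDC3, heparan sulfate proteoglycans of the cell surface, rose 2.65-fold and 2.63-fold (adjusted p = 5.15e-05 and 5.39e-05). The phosphodiesterase CNP of oligodendrocyte myelin and the cytoskeleton went to 148, 195 and 157 CPM from 52, 53.5 and 38.9 CPM (adjusted p = 7.17e-05). None of these genes overlapped between groups, which was a condition for naming them. Replicate 2 was the highest knockdown library for FSTL1, SYT13, CNP and SDC3 and the lowest for PCNA.

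Among the largest rises by fold was NKD1, an intracellular antagonist of Wnt signalling that Wnt itself induces. It stood at 51.8, 102 and 52.3 CPM in knockdown replicates 1 to 3 and 3.16, 4.26 and 3.46 CPM in the controls, a 19-fold rise (log2 fold change 4.25 with SE 0.64, adjusted p = 0.00133), highest in replicate 2 and 3.84 on the log2 scale without it. LFNG, a glycosyltransferase that modifies Notch receptors, rose to 7.61, 10.2 and 13.2 CPM from 1.11, 1.24 and 0.21 CPM. The rhomboid-like protein RHBDL3 went to 16.6, 12.9 and 15.2 CPM from 1.81, 2.48 and 0.734 CPM (log2 fold change 3.15 with SE 0.36, adjusted p = 0.000378). TMSB4X, the actin-binding thymosin beta 4, and AMIGO2, a cell adhesion protein, were among the abundant transcripts that rose, at 789.9, 689.5 and 942 CPM against 337, 380.4 and 325 CPM and 933, 1015 and 1078 CPM against 533, 576 and 533 CPM. Their changes were 2.32-fold (adjusted p = 0.000946) and 1.84-fold (0.0053). The libraries of either gene did not overlap between groups, which was again a condition for naming them.

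Of the genes that fell, SLC1A3, a glial-type glutamate and aspartate transporter, was nearly absent after the knockdown, at 0, 0 and 0.245 CPM in knockdown replicates 1 to 3 and 15.5, 12.8 and 13 CPM in the controls (adjusted p = 0.000359). KRT80, an intermediate filament keratin, fell 5.82-fold, with 99.3, 69.1 and 139.7 CPM against 564, 571 and 659 CPM (log2 fold change -2.54 with SE 0.22, adjusted p = 8.43e-05), and FRMD3, a protein of the membrane skeleton, 7.77-fold, with 8.64, 8.94 and 9.88 CPM against 77.2, 78.3 and 58 CPM (log2 fold change -2.96 with SE 0.25, adjusted p = 7.28e-05). SVEP1, a secreted adhesion protein, RAB39B, a vesicle GTPase, PDE3A, a cyclic nucleotide phosphodiesterase, and DLC1, a tumour suppressor, fell 13-fold, 12.9-fold, 9.7-fold and 5.89-fold. The knockdown and control libraries overlapped in none of these genes, as the rule for naming them required. EML4, a microtubule-binding protein, and SLC16A7, a monocarboxylate transporter, had the smallest adjusted p of the falls, both 2.8e-05. EML4 stood at 103, 124 and 108 CPM against 356, 354 and 353 CPM and SLC16A7 at 15, 12.2 and 14.8 CPM against 48.8, 50.5 and 57.8 CPM, and the spread within each group was small beside the gap. NFIB, a transcription factor of lung development, fell to 64.6, 80.6 and 67.9 CPM from 186, 184 and 168 CPM, and MEF2D, a MADS-box factor, to 30.2, 42.2 and 27.6 CPM from 111, 107 and 126 CPM (adjusted p = 6.86e-05 and 7.4e-05). NOP56, a ribosomal RNA methylation core protein, showed 0.977, 0 and 0.552 CPM against 13.5, 25.1 and 47.9 CPM, but its fall is uncertain: once the assembled transcripts of the table were added to the gene its adjusted p was 0.73.

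**Figure D1:**
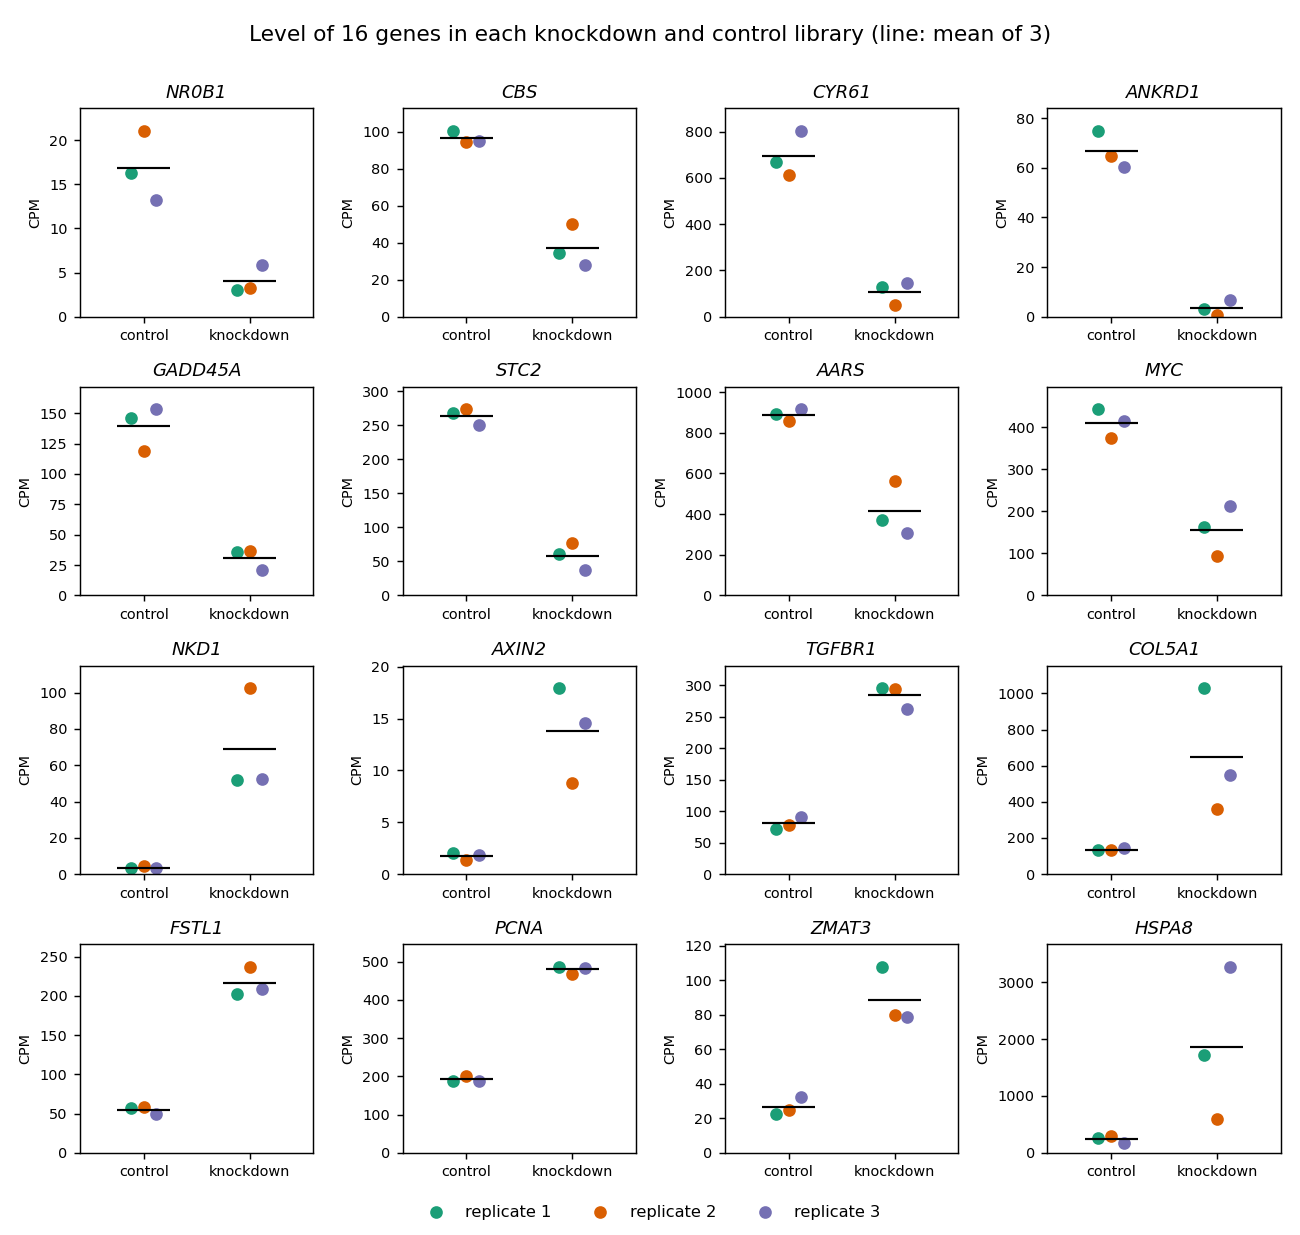
Levels, in CPM, of 16 genes in the 3 control and 3 knockdown libraries, on linear axes from 0. Points are libraries, colours are replicate numbers and lines are group means. No gene shown overlaps between the groups, which was a condition for naming many of them. HSPA8 runs from 589 to 3271 CPM among the knockdown libraries.

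The 11 genes of the study's own subject, NR0B1, the NRF2 pathway and glutathione synthesis, gave 0 that rose and 4 that fell (36.4%, against 11.5% of all genes called lower, median log2 fold change -0.28). This list holds genes that the study is known to have followed up, so it is not independent evidence of a direction. CBS, which joins homocysteine and serine in the first step of transsulfuration, stood at 34.2, 50 and 27.9 CPM in knockdown replicates 1 to 3 and 101, 94.7 and 95 CPM in the controls (log2 fold change -1.37 and, without replicate 2, -1.64). Its reads can be shared with the near-identical copy CBSL. NFE2L2, which encodes NRF2, stood at 117, 188 and 131 CPM in knockdown replicates 1 to 3 and 355, 329 and 325 CPM in the controls (log2 fold change -1.21). JUN, an AP-1 subunit, stood at 108, 101 and 139 CPM in knockdown replicates 1 to 3 and 278, 247 and 292 CPM in the controls. CBS and NFE2L2 were highest in replicate 2 among the knockdown libraries, JUN in replicate 3, and the groups overlapped in none of these genes. SLC7A11, the cystine importer, was at 374, 463 and 506 CPM against 565, 623 and 443 CPM and did not pass (adjusted p = 0.647). GPX4, the peroxidase that removes lipid peroxides, was at 126, 117 and 120.4 CPM against 141, 108 and 125 CPM, with an adjusted p of 0.806. GCLC and GCLM, the subunits of the enzyme that makes gamma-glutamylcysteine, were at 133, 156 and 222 CPM against 251, 249.6 and 229 CPM and at 116, 118 and 192 CPM against 104, 106 and 79 CPM. They differed by -0.51 and 0.56 on the log2 scale and did not pass (adjusted p = 0.076 and 0.068), although GCLM passed without replicate 2 (0.0356).

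Of 35 tested genes of glutathione synthesis and use, 8 rose and 0 fell, and their median log2 fold change was 0.25, against 0.03 over all genes. The 8 are 22.9%, against 12.4% of all genes that were called higher and 23.9% that were called in either direction. They were glutathione peroxidases and transferases. GSTO1, an omega-class transferase, stood at 57.1, 58.5 and 65.9 CPM against 30.4, 35.7 and 29.8 CPM (log2 fold change 0.92 with SE 0.13, adjusted p = 0.000877), and GPX1, the cytosolic peroxidase, at 228, 218 and 248 CPM against 164, 159 and 158 CPM (log2 fold change 0.53 with SE 0.084, adjusted p = 0.00175). MGST2, a microsomal transferase, and GPX8, a peroxidase of the endoplasmic reticulum, rose 1.7-fold and 1.46-fold. The count fell to 5 without overexpression replicate 3 and to 4 without knockdown replicate 1 or any of the 3 knockdown controls, and 2 genes fell without overexpression control replicate 1 or knockdown replicate 3. Of 42 NRF2 targets 6 rose and 3 fell (21.4%, median 0.02), and 10 rose without knockdown replicate 2. The fallen count was 1 without knockdown replicate 1 and 7 without replicate 3. The aldo-keto reductase AKR1C3, with 661, 735 and 692 CPM against 422, 389 and 427 CPM, and the carbonyl reductase CBR3, with 6.07, 8.51 and 6.14 CPM against 2.17, 2.19 and 1.31 CPM, were higher in every knockdown library, although AKR1C3 shares sequence with other AKR1C genes. NRF2 itself fell at the transcript level, as did NR0B1, which is also on the target list.

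The enzyme GOT1, cytosolic aspartate aminotransferase, fell 3.48-fold, with 35, 44.7 and 27.7 CPM against 120.1, 116 and 137 CPM (log2 fold change -1.80 with SE 0.21, adjusted p = 0.000382). The 25 tested genes of the methionine cycle and transsulfuration gave 3 that rose and 3 that fell (24.0%, median 0.06), close to the background, with the sulfurtransferase TST higher at 26.5, 28.2 and 23.7 CPM against 15, 17 and 13.9 CPM. The count of 3 that rose was 1 without knockdown control replicate 1 or 3. Of 38 iron and lipid genes of ferroptosis, 5 rose and 2 fell (18.4%, below the 23.9% of all genes). LPCAT1, which remodels phosphatidylcholine, stood at 143, 86.1 and 344 CPM against 51.3, 59.1 and 44.2 CPM, the lipoxygenase ALOXE3 at 1.23, 1.84 and 3.07 CPM against 9.95, 7.87 and 10.2 CPM and the ferrireductase STEAP3 at 95.8, 79.5 and 97.7 CPM against 55.8, 53.4 and 51.1 CPM. LPCAT1 and STEAP3 rose and ALOXE3 fell, by 3.71-fold, 1.7-fold and 4.56-fold. Without overexpression control replicate 1 this list gave 8 that rose and 4 that fell, without knockdown replicate 2 it gave 9 that rose, and without knockdown control replicate 3 it gave 3 that rose.

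Targets of ATF4 fell together. ATF4 is the transcription factor of the integrated stress response, and with C/EBP partners it drives amino acid synthesis, amino acid import and tRNA charging. Of 40 tested targets 1 rose and 16 fell (42.5% called against 23.9% of all genes), with a median log2 fold change of -0.82, and 23 fell without knockdown replicate 2, with a median of -0.98. The rise, SLC33A1, was joined by another without knockdown replicate 2 or overexpression control replicate 1. In all 16 the knockdown and control libraries did not overlap, as in 96.9% of all called genes. STC2, a secreted glycoprotein hormone, stood at 61.2, 76.6 and 38 CPM in knockdown replicates 1 to 3 and 267, 273 and 250.3 CPM in the controls (log2 fold change -2.17 with SE 0.35, adjusted p = 0.00193). PYCR1, which makes proline in mitochondria, had the smallest adjusted p, with 69.1, 58.8 and 67.5 CPM against 146, 152 and 159 CPM (log2 fold change -1.23 with SE 0.12, adjusted p = 0.000133). XPOT, the nuclear export receptor of tRNA, was at 232, 204 and 136 CPM against 464, 432 and 466 CPM, and SLC1A5, the glutamine importer, at 369.5, 526 and 352 CPM against 781, 807 and 843 CPM. ASNS, which makes asparagine, was at 119.5, 176 and 89.6 CPM against 339, 344 and 393 CPM, and PHGDH, the first enzyme of serine synthesis, at 91, 117 and 72.7 CPM against 189, 184 and 186 CPM (2.79-fold, adjusted p = 0.00497, and 1.99-fold, adjusted p = 0.00238). For STC2, SLC1A5, ASNS and PHGDH replicate 3 was the lowest and replicate 2 the highest knockdown library. The median over the list per library was -0.76, -0.44 and -1.26 in knockdown replicates 1 to 3, against -0.02 to 0.01 in the controls. The transcript of ATF4 itself stood at 369, 389.8 and 283 CPM against 448, 442 and 454 CPM and did not pass (adjusted p = 0.143). The amino acid transporter SLC6A15, which carries branched-chain amino acids, fell to 10.5, 17.4 and 3.74 CPM from 44.4, 44.4 and 60.6 CPM (log2 fold change -2.24 with SE 0.39, adjusted p = 0.00256). Amino acid transporters did not fall as a group: of 26 tested 3 rose and 3 fell (23.1%, near the 23.9% of all genes, median -0.28). Without replicate 2, 1 rose and 7 fell, and over the leave-outs 1 to 5 rose and 3 to 7 fell. ATF3, a stress-induced ATF family member, fell to 12.6, 26.9 and 7.67 CPM from 111, 106 and 119.8 CPM. PPP1R15A, the phosphatase subunit that ends this stress response, fell 5.47-fold, with 74.7, 148 and 83.3 CPM against 573, 491 and 606 CPM.

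The cytosolic aminoacyl-tRNA synthetases, which load amino acids onto tRNA, gave the highest share of falls of any list: 0 of 22 rose and 12 fell, which is 54.5% against 11.5% of all genes that were called lower. The median log2 fold change was -0.58, and leaving out single libraries gave 9 to 14 falls, with 1 rise without knockdown replicate 2. AARS (alanine) stood at 370.2, 564 and 308 CPM in knockdown replicates 1 to 3 and 890.1, 859 and 915 CPM in the controls, GARS (glycine) at 324, 409.6 and 276 CPM against 775, 751 and 828 CPM, MARS (methionine) at 140.0, 189 and 122 CPM against 385, 328 and 422 CPM and NARS (asparagine) at 162, 171 and 150.2 CPM against 331, 324 and 342 CPM. EPRS, which charges glutamate and proline, had 294, 300.4 and 309 CPM against 519, 498 and 563 CPM (log2 fold change -0.81 with SE 0.10, adjusted p = 0.000394), and TARS (threonine) 243, 234 and 251 CPM against 472, 429 and 506 CPM (log2 fold change -0.95 with SE 0.15, adjusted p = 0.0018). The knockdown libraries of EPRS, NARS and TARS differed little from each other, whereas AARS was highest in replicate 2, and no knockdown library of these genes reached a control. The medians of this list per library were -0.66, -0.64 and -0.51.

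Promoter sequences from RefSeq (GRCh38.p14, from 250 bases before to 50 after the first base of a gene, the first listed for each gene) were matched to 9692 of the 11908 genes tested. The motif TGATGNAA, in which C/EBP and ATF proteins can bind as a pair, was searched on both strands. It was present in 5 of the 9 matched promoters of the fallen tRNA synthetases, in 6 of 18 of all tested synthetases and in 7 of 32 ATF4 targets (33.3% and 21.9%), against 1.62% of all 9692 promoters. Among the fallen ATF4 targets it was in 3 of 12 (25%), near the share of all tested ATF4 targets. The stretches of the 5 synthetases and of ASNS and ATF3 are shown because these genes fell together and each carries a match. MTHFD1L, on the ATF4 list and called lower with all libraries, also carries a match and is not shown. The match is in capitals, and TTGCATCA is the same site read on the other strand.
AARS: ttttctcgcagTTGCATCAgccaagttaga
CARS: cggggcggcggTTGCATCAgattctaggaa
MARS: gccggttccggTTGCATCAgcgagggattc
NARS: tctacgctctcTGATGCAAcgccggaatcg
TARS: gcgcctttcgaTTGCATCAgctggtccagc
ASNS: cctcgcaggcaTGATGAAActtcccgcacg
ATF3: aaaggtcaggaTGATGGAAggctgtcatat
They lie at chr16:70289675-70289704 (AARS, minus strand), chr11:3057407-3057436 (CARS, minus), chr12:57488053-57488082 (MARS, plus), chr18:57621804-57621833 (NARS, minus), chr5:33440956-33440985 (TARS, plus), chr7:97872458-97872487 (ASNS, minus) and chr1:212565205-212565234 (ATF3, plus). The match starts 187 bases before the first base of AARS, and the others start at positions -2 (CARS), -4 (MARS), 14 (NARS), 2 (TARS), -68 (ASNS) and -191 (ATF3) counted from it. All 5 synthetases carry the same letters, TGATGCAA or its reverse complement, and ASNS and ATF3 differ from them at the variable position only. Among the shared changes that were called again without replicate 2, TGATGNAA was in 25 of 984 promoters of genes that fell (2.54%) and in 11 of 929 of genes that rose (1.18%).

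Targets of YAP and TEAD fell as well. YAP is a coactivator that enters the nucleus on spread or stiffly anchored cells and works through TEAD factors. Of 28 tested targets 2 rose and 13 fell (53.6% called against 23.9% of all genes, median log2 fold change -0.57), and 11 to 14 fell when any 1 library was left out. ANKRD1, a cofactor that is a sensitive target of this pathway, stood at 3.29, 0.551 and 6.69 CPM in knockdown replicates 1 to 3 and 74.9, 64.5 and 60.2 CPM in the controls (log2 fold change -4.24 with SE 0.58, adjusted p = 0.000856). CYR61, a matricellular growth factor also called CCN1, stood at 128, 50.3 and 145 CPM in knockdown replicates 1 to 3 and 671, 613 and 804 CPM in the controls (log2 fold change -2.69 with SE 0.41, adjusted p = 0.00131). Its relative CTGF (CCN2) had 38.5, 25.9 and 32.8 CPM against 89.8, 94.7 and 114 CPM and AJUBA, an adaptor that restrains the Hippo kinases, 140.5, 104 and 134 CPM against 420.5, 404 and 463 CPM, both with an adjusted p of 0.000135. AMOTL2 and LATS2, negative regulators of YAP, fell to 29.9, 15.3 and 46.3 CPM from 119.9, 133 and 159 CPM and to 29.6, 27.2 and 32.5 CPM from 62.8, 71 and 68.5 CPM. GADD45A, a DNA damage and stress protein that is on the p53 list too, fell 4.51-fold, with 35.4, 36.2 and 21.1 CPM against 146, 119 and 153 CPM. TEAD4 itself was lower, at 17, 14 and 26.8 CPM against 44, 35.1 and 41 CPM. YAP1, which encodes YAP and is on the list too, stood at 95.7, 144 and 106 CPM against 155, 160.1 and 188 CPM and was called lower (adjusted p = 0.0235), but the call ended without knockdown replicate 1, knockdown replicate 3 or knockdown control replicate 3, at up to 0.0868. Replicate 2 was the lowest knockdown library for ANKRD1, CYR61, CTGF, AJUBA and AMOTL2. The ecto-nucleotidase NT5E and the coagulation receptor F3 went the other way, with 162, 323 and 201 CPM against 74.2, 74.1 and 76.5 CPM and 7.56, 12.1 and 14.7 CPM against 5.33, 5.09 and 5.97 CPM.

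The TEAD motif GGAATG was searched after the list had been seen to fall. It was in 5 of the 8 matched promoters of fallen members and in 8 of 20 of all tested members (40%), against 10.5% of all promoters. Among the shared changes called again without replicate 2, it was as frequent in genes that rose as in genes that fell. It was in 109 of 929 promoters of the former and 115 of 984 of the latter, 11.7% each. The stretch upstream of CTGF is shown because it holds 3 matches, in capitals, within 100 bases (chr6:131951452-131951551, minus strand, GRCh38.p14, from 179 to 80 bases before the first base of the gene).
CTGF: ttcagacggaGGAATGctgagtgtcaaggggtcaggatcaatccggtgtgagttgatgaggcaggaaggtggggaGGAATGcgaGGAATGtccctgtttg
ANKRD1 and NUAK2 each hold 2 matches and LATS2 and YAP1 hold 1, and NUAK2, a kinase of the AMPK family, fell to 119.9, 169 and 148 CPM from 344, 335 and 369.8 CPM. GGAATG matches overlapped those of TGATGNAA in 3 promoters.

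Of the immediate early and growth factor genes, the EGFR ligands and the FOSL subunits of AP-1 were lower. The list of ERK feedback genes holds genes that the MAP kinase ERK induces. Not all of them limit ERK, since the EGFR ligand EREG is on it. The list gave 1 that rose and 10 that fell of 23 (47.8% against 23.9% of all genes, median -0.34, and -0.87 without replicate 2), and 6 fell without knockdown control replicate 3. The rise, DUSP4, lost its call in 9 of the 12 leave-outs (adjusted p up to 0.133, without knockdown control replicate 1). The EGFR ligands EREG and AREG stood at 292, 668 and 300.2 CPM against 984, 995 and 1270 CPM and at 41.9, 63 and 40.3 CPM against 117, 106 and 115 CPM (log2 fold change -1.37 with SE 0.27, adjusted p = 0.00544, and log2 fold change -1.22 with SE 0.16, adjusted p = 0.000589). The phosphatase DUSP1 stood at 203, 256 and 129.6 CPM against 534, 569 and 618 CPM and the ephrin receptor EPHA2 at 151, 194 and 206 CPM against 335, 339 and 347 CPM. Replicate 2 was the highest knockdown library for EREG, AREG and DUSP1, and the list medians per library were -0.83, -0.09 and -0.86. Of the 27 AP-1 and immediate early genes 6 rose and 9 fell (55.6% against 23.9%, median -0.24, and -0.48 without replicate 2). FOSL1 and FOSL2, AP-1 subunits, fell to 19.1, 16.6 and 59.1 CPM from 105, 90.4 and 104 CPM and to 556, 635 and 521 CPM from 921, 883 and 1038 CPM. The rises of this list depended on the libraries: there were 3 without any 1 of the 3 overexpression libraries, overexpression control replicate 2 or 3, or knockdown replicate 1, 1 without knockdown control replicate 3 and 0 without control replicate 1 or 2. FOS itself was at 53.4, 9.98 and 3.99 CPM against 5.97, 4.5 and 4.98 CPM, highest in replicate 1, and its call (adjusted p = 0.0476) ended in 10 of the 12 leave-outs, at up to 0.388 without knockdown replicate 1. The AP-1 motif TGANTCA was in 6.03% of promoters of the genes that rose in all knockdown libraries and 3.15% of those that fell, against 4.32% of all promoters. The antioxidant response core TGACNNNGC, which overlapped it in 37 promoters, was in 16%, 14.9% and 15%.

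MYC, the growth-promoting factor that drives ribosome production, fell 2.64-fold, with 162, 92.6 and 212 CPM against 442, 373 and 414 CPM (log2 fold change -1.40 with SE 0.24, adjusted p = 0.00251). Of 48 ribosome biogenesis genes, MYC included, 0 rose and 16 fell (33.3%, against 11.5% of all genes called lower, median -0.39). The helicase DDX21 of RNA polymerase I transcription stood at 382, 392 and 497 CPM against 750.1, 749.8 and 922 CPM, the polymerase I initiation factor RRN3 at 78.8, 98.2 and 106 CPM against 132, 143 and 159 CPM and the endonuclease NOB1 at 70.8, 82.3 and 80.4 CPM against 122, 121 and 126 CPM. The per-library medians of the list were -0.50, -0.73 and 0.00. The 16 called members were below the controls in all 3 knockdown libraries, and 96.9% of all called genes likewise did not overlap. Without replicate 2 the median was -0.24. The count of falls was 5 without knockdown replicate 1, 10 without replicate 2, 31 without replicate 3, and 6, 9 and 6 without control replicates 1 to 3, and 1 gene rose without replicate 2.

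Extracellular matrix genes rose. Of 29 collagen and laminin chains and other matrix proteins 13 rose and 0 fell (44.8%, against 12.4% of all genes called higher), with a median log2 fold change of 0.67 and 0.66 without replicate 2. COL5A1, a fibrillar collagen chain, stood at 1030, 359.7 and 548 CPM in knockdown replicates 1 to 3 and 132, 131 and 144 CPM in the controls (log2 fold change 2.25 with SE 0.36, adjusted p = 0.00187). The basement membrane chains COL4A1 and COL4A2 stood at 609.9, 432 and 466 CPM against 203, 184 and 249 CPM and at 809, 637 and 570.0 CPM against 335, 288 and 367 CPM (adjusted p = 0.000394 and 0.000841). COL18A1, the source of endostatin, had 360.5, 259 and 289 CPM against 149.7, 141 and 151 CPM, and the microfibrillar chain COL6A2 55.6, 101 and 49.8 CPM against 19.1, 22.4 and 20.3 CPM. All 3 knockdown libraries exceeded all controls in each of these genes, COL6A2 most in replicate 2 and the others most in replicate 1. The per-library medians of the list were 0.68, 0.62 and 0.54. Without knockdown control replicate 1 or 3 the count was 7, and 1 gene fell without knockdown replicate 2.

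Enzymes that fold and mature collagen rose with the chains: 10 of 20 rose and 0 fell (50%, against 12.4% of all genes called higher, median 0.40), and 5 rose without any 1 of the 3 knockdown controls. PLOD1, a lysyl hydroxylase, had 118, 118 and 108 CPM against 64.3, 57.4 and 56 CPM (log2 fold change 0.96 with SE 0.10, adjusted p = 0.000202), and BMP1, which removes the procollagen tail, 158, 166 and 111 CPM against 64.6, 61.8 and 58.5 CPM (log2 fold change 1.23 with SE 0.15, adjusted p = 0.000382). P4HA2, a prolyl hydroxylase subunit, rose to 112, 114 and 71.5 CPM from 40.2, 38.5 and 42.8 CPM, and the collagen chaperone SERPINH1 to 107, 114 and 162 CPM from 65.2, 57.9 and 53.3 CPM, highest in replicate 3. Of 13 integrin subunits 5 rose and 0 fell (38.5%, against 12.4% of all genes called higher, median 0.70, and 0.36 without replicate 2), and 3 rose without any 1 of the 3 knockdown controls. ITGB3 stood at 28.1, 40.5 and 40.2 CPM against 12.4, 16.6 and 11.9 CPM, ITGAV, its partner in the vitronectin receptor, at 576, 574 and 499.9 CPM against 296, 317 and 371 CPM, and the collagen receptor subunit ITGA11 at 17.1, 8.32 and 9.88 CPM against 2.11, 2.19 and 2.41 CPM. Of 25 metalloproteases and inhibitors 9 rose and 2 fell (44% called against 23.9% of all genes, median 0.51, and 0.30 without replicate 2). ADAM19 rose 5.11-fold, with 219, 261 and 224 CPM against 43.9, 44.7 and 49 CPM (log2 fold change 2.35 with SE 0.28, adjusted p = 0.000401), and ADAMTS9 2.89-fold, while ADAM9, another sheddase, fell to 415, 384 and 478 CPM from 722, 771 and 815 CPM. The count of rises in this list was 5 without knockdown control replicate 3, and that of falls was 1 without knockdown replicate 1 or 3 or control replicate 1 or 3.

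In the TGF-beta pathway the receptor and several targets rose. TGFBR1, the type I receptor kinase, stood at 296, 294 and 263 CPM in knockdown replicates 1 to 3 and 72.4, 78.7 and 91.5 CPM in the controls (log2 fold change 1.81 with SE 0.14, adjusted p = 5.15e-05). TGFBI and PMEPA1, both induced by TGF-beta, stood at 3830, 2588 and 2413 CPM against 1414, 1371 and 1312 CPM and at 623, 576 and 914 CPM against 116, 117 and 136 CPM (2.16-fold, adjusted p = 0.0023, and 5.72-fold, adjusted p = 0.00469). TAGLN, a smooth muscle actin-binding protein, and CALD1, a tropomyosin-binding partner of the same system, rose 2.56-fold and 1.4-fold. The receptor was nearly level across the knockdown libraries and PMEPA1 was highest in replicate 3. Neither overlapped with the controls, as the rule for naming them required. Of 29 TGF-beta response and mesenchymal genes 9 rose and 1 fell (34.5% against 23.9% of all genes), with a median of 0.08, or 0.37 without knockdown replicate 2, and 7 to 11 rises over the leave-outs. The gene that fell was TGFBR2, the type II receptor, at 134, 210.4 and 158 CPM against 272, 287 and 293 CPM (adjusted p = 0.0384). Its call ended without knockdown replicate 1 (0.123) or any of the 3 knockdown controls, as well as without knockdown replicate 3, and 4 genes of the list fell without knockdown replicate 2. SMAD7, a further target of this pathway, was at 26.6, 13.5 and 24 CPM against 23.1, 24.6 and 25.7 CPM and did not pass (adjusted p = 0.561).

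NKD1 and AXIN2, feedback inhibitors of Wnt signalling, rose. Wnt ligands stabilise beta-catenin, and the pathway induces both inhibitors. AXIN2, the scaffold of beta-catenin destruction, stood at 17.9, 8.75 and 14.6 CPM in knockdown replicates 1 to 3 and 2.05, 1.36 and 1.83 CPM in the controls (log2 fold change 2.97 with SE 0.44, adjusted p = 0.00113), and its relative AXIN1 fell to 42.1, 54.5 and 45.5 CPM from 78.8, 68.4 and 64.9 CPM. The receptor FZD5 had 76, 87.5 and 76.9 CPM against 28.6, 33.8 and 32.7 CPM (log2 fold change 1.34 with SE 0.11, adjusted p = 7.85e-05) and CTNNB1, which encodes beta-catenin, 403, 459 and 429.8 CPM against 267, 281 and 307 CPM (log2 fold change 0.60 with SE 0.10, adjusted p = 0.00216). The secreted inhibitors SFRP1 and DKK3 rose to 87.8, 84.6 and 125 CPM from 43.5, 45.5 and 37.4 CPM and to 28.3, 61.5 and 30.6 CPM from 15.5, 12.2 and 10.6 CPM. The ligand WNT5A and the receptor FZD3 fell 2-fold and 1.62-fold. In total 10 of 28 tested genes rose and 3 fell (46.4% against 23.9% of all genes, median 0.60, per-library medians 0.51, 0.66 and 0.42), and 6 rose without knockdown control replicate 3.

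The semaphorin receptors PLXND1, PLXNA3 and NRP2 rose. Semaphorins are guidance ligands that act through plexins and neuropilins. PLXND1 stood at 75.5, 65.2 and 75.7 CPM in knockdown replicates 1 to 3 and 21.3, 25 and 15.2 CPM in the controls (log2 fold change 1.82 with SE 0.17, adjusted p = 0.000126), PLXNA3 at 44.6, 49.5 and 33.8 CPM against 20.6, 21.2 and 19 CPM and the coreceptor NRP2 at 380.2, 355 and 358 CPM against 209, 204 and 154 CPM. The ligand SEMA4D rose to 38.2, 47.2 and 22.3 CPM from 12.9, 15 and 10.5 CPM and SEMA3E fell to 2.06, 0.612 and 2.02 CPM from 8.55, 7.75 and 8.59 CPM. Of 21 tested members 9 rose and 1 fell (47.6% against 23.9% of all genes, median 0.78), with 6 to 10 rises over the leave-outs and 2 falls without knockdown replicate 2.

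**Figure D2:**
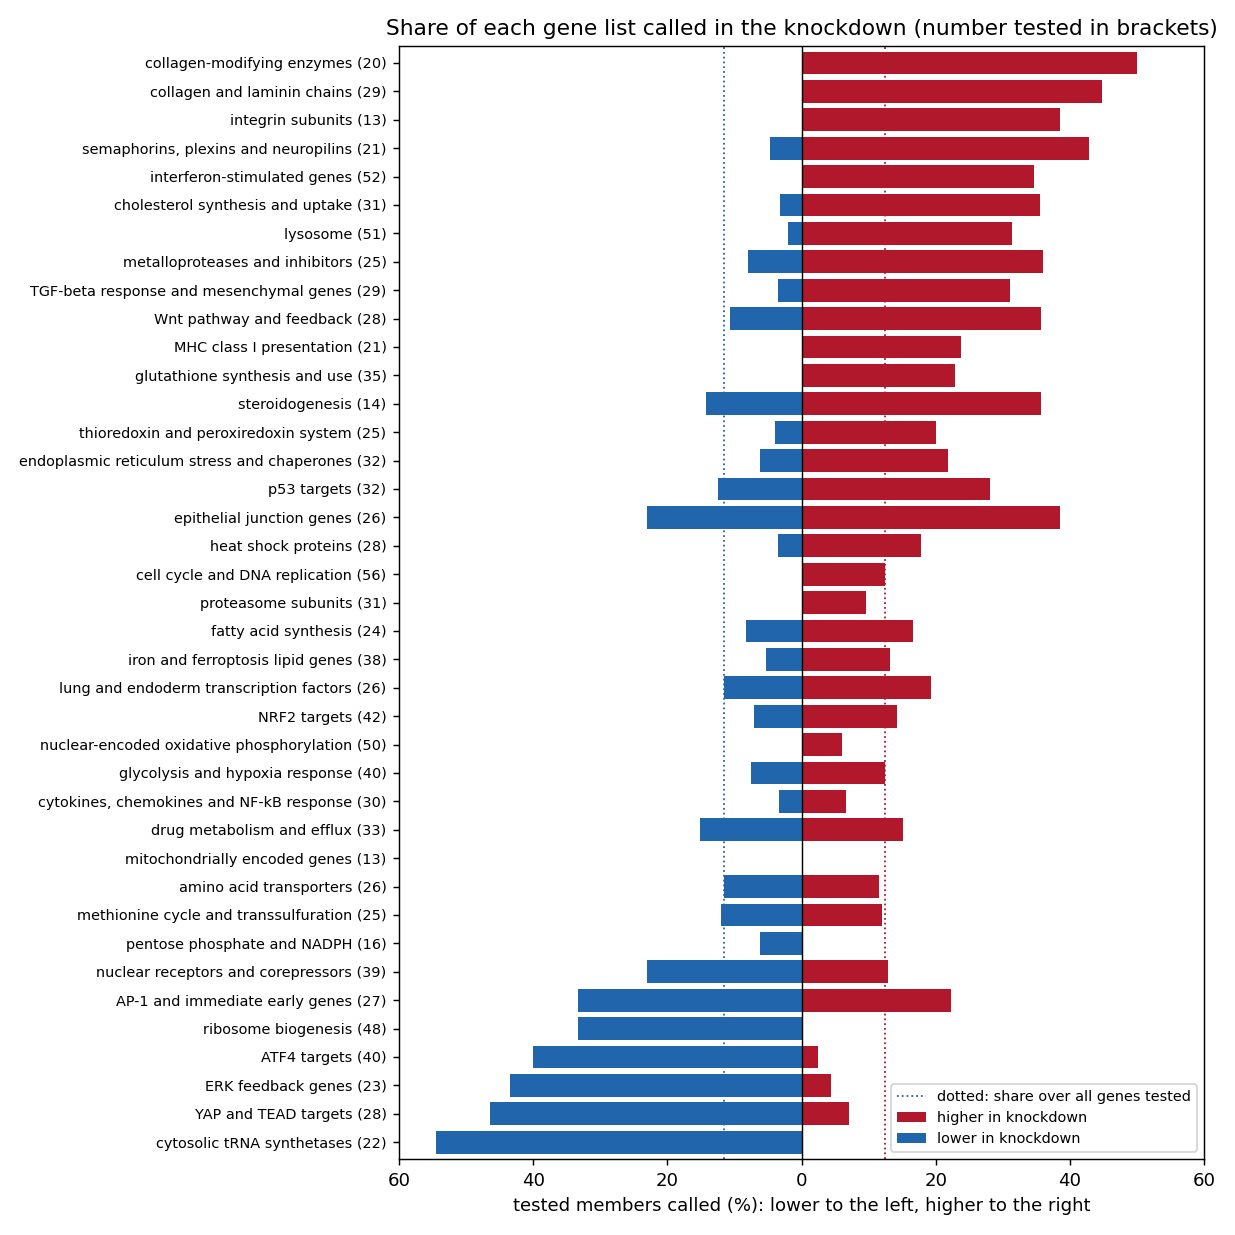
Percent of tested members called higher (right, red) or lower (left, blue) in the knockdown for 39 gene lists, with the number tested in brackets. Dotted lines mark the shares over all genes tested, 12.4% higher and 11.5% lower. The tRNA synthetases reach 54.5% lower and the collagen-modifying enzymes 50% higher.

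Part of the p53 programme rose. p53 is wild type in A549 and induces arrest, repair and death genes. Of 32 targets 9 rose and 4 fell (40.6% against 23.9% of all genes, median 0.12). ZMAT3, an RNA-binding tumour suppressor, stood at 108, 79.8 and 78.8 CPM against 22.4, 24.7 and 32.4 CPM (log2 fold change 1.74 with SE 0.24, adjusted p = 0.000919), TP53I3, a quinone oxidoreductase, at 164, 117 and 133 CPM against 56.1, 57.4 and 57.6 CPM (log2 fold change 1.27 with SE 0.13, adjusted p = 0.000151) and the death receptor FAS at 49.4, 56.2 and 44 CPM against 23.8, 23 and 25.1 CPM. CCNG1, cyclin G1, rose 2.18-fold, with 209, 213 and 200.1 CPM against 92.8, 98.2 and 94 CPM, and the DNA polymerase POLH 2.21-fold. GADD45A and AEN, a nuclease, fell. CDKN1A and MDM2, standard p53 targets, were at 1031, 1241 and 602 CPM against 593, 540.0 and 856 CPM and at 665, 991 and 421 CPM against 604, 603 and 841 CPM and did not pass (adjusted p = 0.151 and 0.966). The count of falls was 2 without knockdown replicate 1, knockdown replicate 3 or control replicate 3.

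Nuclear receptors and corepressors, NR0B1 among them, changed in both directions, 5 higher and 9 lower of 39 tested (35.9% against 23.9% of all genes, median -0.06, and -0.24 without replicate 2). NR3C2, the mineralocorticoid receptor, fell 5.23-fold, with 0.463, 0.428 and 0.368 CPM against 2.4, 1.89 and 2.41 CPM, and NR4A3, an immediate early orphan receptor, 3.3-fold, with 1.8, 3.43 and 1.53 CPM against 6.21, 5.68 and 10.4 CPM. The clock repressors NR1D1 and NR1D2 fell to 28.6, 40.5 and 11 CPM from 72.4, 61.4 and 97.8 CPM and to 124, 143 and 83.8 CPM from 205, 209 and 250.5 CPM. NR2F1, an orphan receptor of development, was at 3.55, 3.43 and 1.78 CPM against 11.1, 7.57 and 7.91 CPM. HNF4A, a liver and gut receptor, rose to 55.4, 51.6 and 47 CPM from 27.2, 31.1 and 26.9 CPM. The knockdown libraries of these 6 genes did not overlap with the controls. The count of rises was between 1 and 3 without any 1 library other than overexpression control replicate 1 and knockdown replicate 3. NR5A1, the receptor that NR0B1 classically represses, has a binding motif of the form CAAGGTCA, which was in 7 of 929 promoters of genes that rose and 3 of 984 of genes that fell, 0.753% and 0.305%, against 0.671% of all promoters. Of 14 tested steroidogenesis genes 5 rose and 2 fell (50% called against 23.9% of all genes). Among them were the ferredoxin reductase FDXR (165, 184 and 122 CPM against 63.2, 63.4 and 81.8 CPM) and HSD17B4, which fell to 56.9, 48 and 42.5 CPM from 71.9, 86 and 78.9 CPM. The rises were 3 without knockdown control replicate 1 or 3, and 1 gene fell without knockdown replicate 2 or control replicate 2 or 3.

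Of 32 endoplasmic reticulum genes 7 rose and 2 fell (28.1%, near the 23.9% of all genes). CALR, the lectin chaperone, stood at 1061, 976 and 1192 CPM against 572, 548 and 507 CPM (log2 fold change 0.99 with SE 0.10, adjusted p = 0.000202) and the disulfide isomerases PDIA3, PDIA4 and PDIA6 rose 1.58-fold, 1.68-fold and 1.61-fold. The 2 falls, XBP1 and ERN1, did not stand without knockdown replicate 1 or knockdown control replicate 3, where the list had 0 falls. Of 51 lysosomal genes 16 rose and 1 fell (33.3% against 23.9%, median 0.31), and without knockdown replicate 2 there were 11 rises at a median of 0.16. CTSH, a cathepsin, stood at 25.9, 23.3 and 23.3 CPM against 13, 12.2 and 10.8 CPM, NPC2, which exports cholesterol, at 93.1, 79.4 and 117 CPM against 56.6, 60.5 and 52.6 CPM, and the acid lipase LIPA at 48.6, 72.7 and 48.5 CPM against 21.2, 23.6 and 28.7 CPM. TFE3, a transcription factor of lysosome genes, was the member that fell, at 43.8, 75.2 and 59.6 CPM against 141, 133 and 151 CPM (log2 fold change -1.25 with SE 0.18, adjusted p = 0.000933), and 2 fell without knockdown replicate 2. The rises numbered 10 without overexpression replicate 3 and 6, 9 and 8 without control replicates 1 to 3. Of 31 cholesterol genes 11 rose and 1 fell (38.7% against 23.9%, median 0.26, and 0.41 without replicate 2), and the rises numbered 5 and 7 without knockdown replicates 1 and 3 and 1, 4 and 3 without control replicates 1 to 3. The count of falls was 0 without knockdown replicate 1 or any 1 of the knockdown controls and 2 without replicate 2. SREBF2, the factor that induces this pathway, was the member whose call no single library ended, at 148, 122 and 118 CPM against 92.5, 93.5 and 91.6 CPM.

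Epithelial character moved in both directions. Of 26 junction genes 10 rose and 6 fell (61.5% called against 23.9% of all genes, median 0.06). Without replicate 2, 5 rose and 9 fell, at a median of -0.08. The per-library medians were -0.05, 0.70 and -0.09. CLDN1 and OCLN of tight junctions fell to 77.8, 163 and 114 CPM from 424, 415 and 611 CPM and to 63.7, 76.5 and 50.5 CPM from 119.5, 126 and 152 CPM (log2 fold change -2.03 with SE 0.26, adjusted p = 0.000552, and log2 fold change -1.06 with SE 0.16, adjusted p = 0.00121). PKP3 of desmosomes fell 1.84-fold, while the desmosomal cadherin DSC2 rose 2.17-fold and CLDN4 3.34-fold. The rises numbered 5 without knockdown replicate 1 or 2 and 3, 3 and 4 without control replicates 1 to 3. Of 26 tested lung and endoderm transcription factors 5 rose and 3 fell (30.8% called against 23.9% of all genes), and 4 rose and 5 fell without replicate 2. Their per-library medians were 0.22, 0.34 and -0.32, not on the same side in all knockdown libraries. Among lineage factors GATA6 and ID3 fell, to 5.35, 9.73 and 6.44 CPM from 17.9, 16.6 and 23.6 CPM and to 164, 118 and 161 CPM from 318, 264 and 270.1 CPM, and SOX4 and SOX2 rose, to 176, 266 and 156 CPM from 81.9, 85.2 and 94.5 CPM and to 11.2, 20.6 and 13.1 CPM from 3.4, 5.38 and 4.66 CPM.

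Marker genes bear on what the cells were. The 10 epithelial markers summed to between 4502 and 8551 CPM in the knockdown and 8200 and 9119 CPM in the control, with the lowest sum in knockdown replicate 2. Most of each sum was KRT7, KRT8 and KRT18. Of the 10, 4 were called higher and 2 lower (60% against 23.9% of all genes), and 2 and 1 without replicate 2. KRT19 was at 161, 127 and 205 CPM against 69.8, 65.4 and 46.5 CPM, and CEACAM6 at 30.5, 40.4 and 55 CPM against 166, 155 and 86.1 CPM. Of 9 alveolar type 2 markers, SFTPA1 and SFTPC were at 0 in all 6 libraries and NKX2-1 at 0.0612 CPM or less. The 9 summed to 30.7, 58.9 and 35.7 CPM in the knockdown and 10.7, 12.1 and 24.2 CPM in the control, without overlap. Nearly all of that was ABCA3, a lipid transporter, at 28.9, 34.4 and 34.7 CPM against 9.66, 11.5 and 22.5 CPM (adjusted p = 0.179), and LAMP3, at 1.03, 23.4 and 0.552 CPM against 0.761, 0.651 and 1.62 CPM (adjusted p = 0.0727), and neither passed. The 8 fibroblast markers summed to 6.14 to 11.4 CPM in the knockdown and 2.23 to 3.49 CPM in the control, with THY1 the highest, and DCN and FAP were at 0 in most libraries. The 6 endothelial markers summed to 0.36 to 0.673 CPM and 0.118 to 0.262 CPM, with PECAM1 and CLDN5 at 0 throughout. Leukocyte markers summed to 45.9 to 141.5 CPM and 38.3 to 50.4 CPM, nearly all of it CD68, with CD3E, CD3D and MS4A1 at 0 throughout, and the 5 erythroid markers to 0.0514 to 0.184 CPM and 0 to 0.0585 CPM. The fibroblast and endothelial sums did not overlap between groups and moved with the matrix genes, and their part in that result was not tested. The endothelial sums rest on few counts, since 3 counts are 0.154 to 0.184 CPM. COL3A1 and COL6A3 of the fibroblast list are themselves matrix genes. In such bulk libraries, fewer cells of a type and less RNA per cell cannot be told apart.

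Interferon-stimulated genes stood far higher in knockdown replicate 2 than in the other libraries. Interferons are cytokines of antiviral defence that induce a common set of effector genes in the cells they reach. MX1, an antiviral GTPase, stood at 5.19, 638 and 2.7 CPM in knockdown replicates 1 to 3 and 1.58, 2.19 and 2.83 CPM in the controls. ISG15, a ubiquitin-like modifier, had 7.51, 411 and 4.48 CPM against 3.63, 2.84 and 3.51 CPM, IFI6 1.49, 459 and 1.96 CPM against 1.46, 1.18 and 1.36 CPM and OAS2, a sensor of double-stranded RNA, 0.874, 392 and 0.675 CPM against 0.234, 0.296 and 0.314 CPM. In each of these replicate 2 was far above all other libraries. Knockdown replicates 1 and 3 also lay above every control for ISG15, IFI6 and OAS2, by much less. For MX1 only replicate 1 of them did. The calls of these 4 genes with all libraries (adjusted p between 0.0253 and 0.0277) were absent without replicate 2, at 0.246 for MX1, 0.156 for ISG15, 0.565 for IFI6 and 0.445 for OAS2, and all 4 also ended without any 1 of the 3 knockdown controls. The transcript of interferon lambda 1, IFNL1, was at 0.0514, 8.26 and 0 CPM in the knockdown libraries and at 0, 0 and 0.105 CPM in the controls, and that of interferon beta, IFNB1, at 0, 2.57 and 0 CPM and 0, 0 and 0.105 CPM.

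On the whole interferon list of 52 tested genes 18 rose and 0 fell with all libraries (34.6%, against 12.4% of all genes called higher), at a median log2 fold change of 3.10. In 8 of the 18 all 3 knockdown libraries lay above the controls, whereas 96.9% of all called genes did not overlap. Without replicate 2 the median was 0.02, 2 rose and 5 fell. Replicate 2 was left out because of its high interferon genes, so this drop of the median is not separate evidence. The count of rises was 34 without knockdown replicate 1, 40 without replicate 3 and 0 without any 1 of the knockdown controls, and 10, 10, 9, 10 and 11 without overexpression replicates 1 to 3 and overexpression control replicates 2 and 3. The 2 genes that rose without replicate 2 were OAS1 and OAS3, of which replicates 1 and 3 were above the controls as well, at 16.7, 308 and 12.8 CPM against 6.56, 6.86 and 5.61 CPM and at 158, 1575 and 104 CPM against 70.7, 82.5 and 56 CPM (1.22 and 0.91 on the log2 scale without replicate 2). With all libraries their calls ended without any 1 of the 3 knockdown controls, at adjusted p-values up to 0.0726 for OAS1 and 0.0905 for OAS3. The 5 that fell without replicate 2 included the RNA sensor IFIH1, with 2.31, 172 and 1.9 CPM against 9.48, 6.57 and 8.7 CPM, and IRF1, with 37.1, 108 and 33.8 CPM against 77.3, 64.1 and 80.7 CPM. The interferon-stimulated response element, in a short core form searched on both strands, was in 25 of 41 matched promoters of this list (61.0%) and in 2.89% of all promoters, but in 2.05% of genes that rose and 2.44% of genes that fell in a way shared by all knockdown libraries.

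Over all genes tested, 130 were at least 4-fold above both other knockdown libraries in replicate 2, on log2(CPM + 1), and 49 of them were on the interferon list. The same count was 3 for replicate 1 and 7 for replicate 3, and 15, 14 and 24 genes were as far below both others in replicates 2, 1 and 3. In 497 genes replicate 2 lay above all controls while replicates 1 and 3 lay below them all, and in 621 genes the order was the other way round. Those counts were 109 and 150 for replicate 1 and 356 and 408 for replicate 3.

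**Figure D3:**
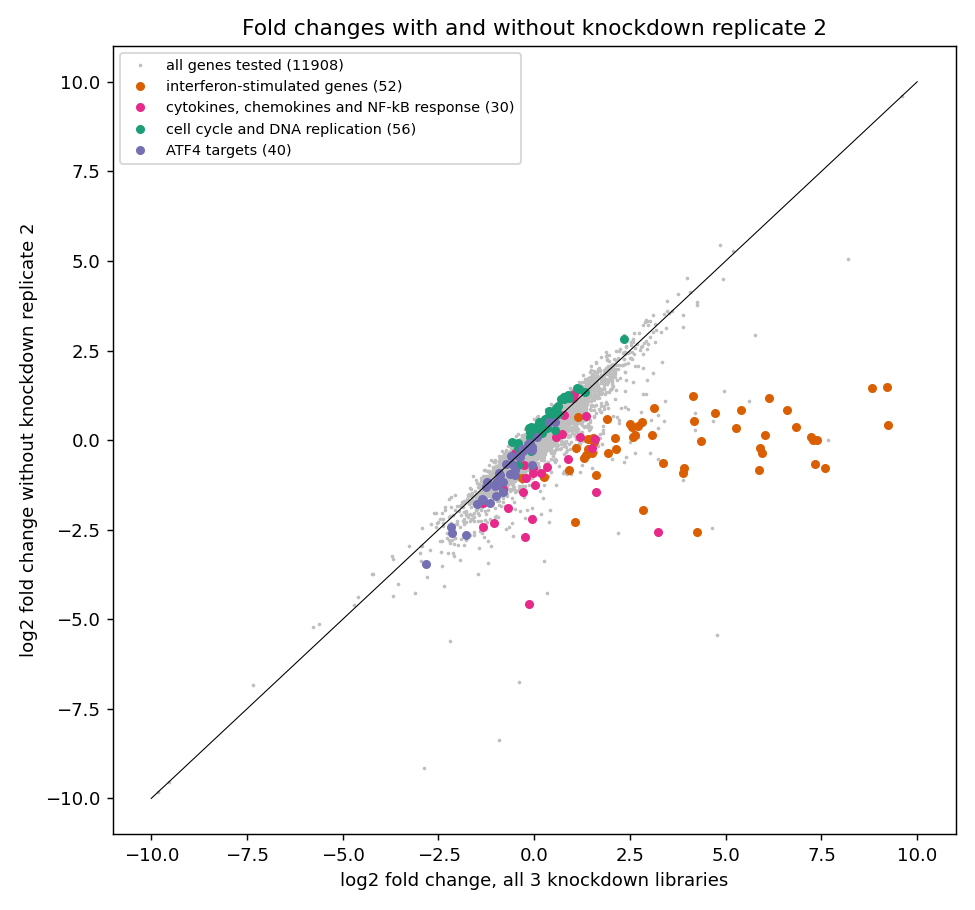
Log2 fold change of all genes tested with 3 knockdown libraries (x axis) and without knockdown replicate 2 (y axis), with 4 gene lists coloured. On the diagonal both agree. The 52 interferon-stimulated genes spread to the right of it, from a median of 3.10 to a median of 0.02 without replicate 2. Replicate 2 was left out because these genes were known to be high in it.

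The median of the inflammatory genes was above the controls in replicate 2 (1.01) and below them in replicates 1 and 3 (-0.88 and -0.76). CXCL8, the neutrophil chemokine interleukin 8, stood at 46.9, 379.9 and 20.6 CPM in knockdown replicates 1 to 3 and 139, 138 and 191 CPM in the controls, so that replicate 2 was above and replicates 1 and 3 below all controls. Its log2 fold change was -0.06 with all libraries (adjusted p = 0.965) and -2.21 without replicate 2 (0.0126). The NF-kB-induced apoptosis inhibitor BIRC3 had 121, 574 and 201 CPM against 281, 271 and 364 CPM and the chemokine CCL2 6.58, 38.8 and 9.33 CPM against 33, 27.6 and 27.9 CPM. Of 30 tested cytokines, chemokines and NF-kB response genes 2 rose and 1 fell with all libraries (10%, below the 23.9% of all genes) and 1 rose and 13 fell without replicate 2, at medians of 0.00 and -0.93. The gene called lower with all libraries was LIF, an interleukin 6 family cytokine, at 44.2, 88.7 and 70.7 CPM against 124, 155 and 122 CPM (log2 fold change -0.98 with SE 0.21, adjusted p = 0.00756). The fallen count was 2 without overexpression control replicate 1. The rises were 4 without knockdown replicate 3, 1 without knockdown replicate 1 and 0 or 1 without any other library but overexpression control replicate 1.

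The median of the cell cycle and replication genes was above the controls in replicates 1 and 3 and below them in replicate 2. MCM4, a subunit of the replicative helicase, stood at 309.7, 109.7 and 359 CPM in knockdown replicates 1 to 3 and 147, 161 and 112 CPM in the controls, and RRM2, of ribonucleotide reductase, at 308, 79 and 312 CPM in knockdown replicates 1 to 3 and 139, 145 and 124 CPM in the controls. Replicate 2 was below every control in both genes. Of 56 tested genes 7 rose and 0 fell (12.5%, close to the 12.4% of all genes) with all libraries, 3 of the 7 above the controls in all 3 knockdown libraries, and 26 rose and 1 fell without replicate 2 (1 fell without replicate 1 too). The per-library medians were 0.60, -0.40 and 0.43. The rises numbered 3 and 2 without knockdown replicates 1 and 3, 2, 3 and 1 without control replicates 1 to 3, and 4 without any 1 of the overexpression libraries or overexpression control replicate 2. PCNA, described above, was at nearly the same level in all 3 knockdown libraries.

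The cytosolic HSP70 chaperones stood highest in replicate 3. HSPA8, the constitutive HSP70 chaperone, stood at 1715, 589 and 3271 CPM in knockdown replicates 1 to 3 and 267, 295 and 176 CPM in the controls (log2 fold change 2.92 with SE 0.47, adjusted p = 0.00189), and HSPA1A, its stress-inducible relative, at 68.9, 48.4 and 301 CPM in knockdown replicates 1 to 3 and 14.3, 15 and 8.38 CPM in the controls (log2 fold change 3.47 with SE 0.66, adjusted p = 0.00427). HSPA1A and HSPA1B are near-identical, so their split is uncertain. The cochaperone DNAJA1 had 165, 187 and 359 CPM against 89, 85.5 and 76.3 CPM and the small heat shock protein HSPB1 389, 276 and 297 CPM against 134, 122 and 94.6 CPM, whereas the mitochondrial HSPA9 fell to 661, 616 and 735 CPM from 1075, 1040 and 1237 CPM. Of 28 tested members 5 rose and 1 fell (21.4%, near the 23.9% of all genes), and 11 rose without replicate 2 and 4 fell without replicate 3. The medians per library were 0.13, -0.43 and 0.50.

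**Figure D4:**
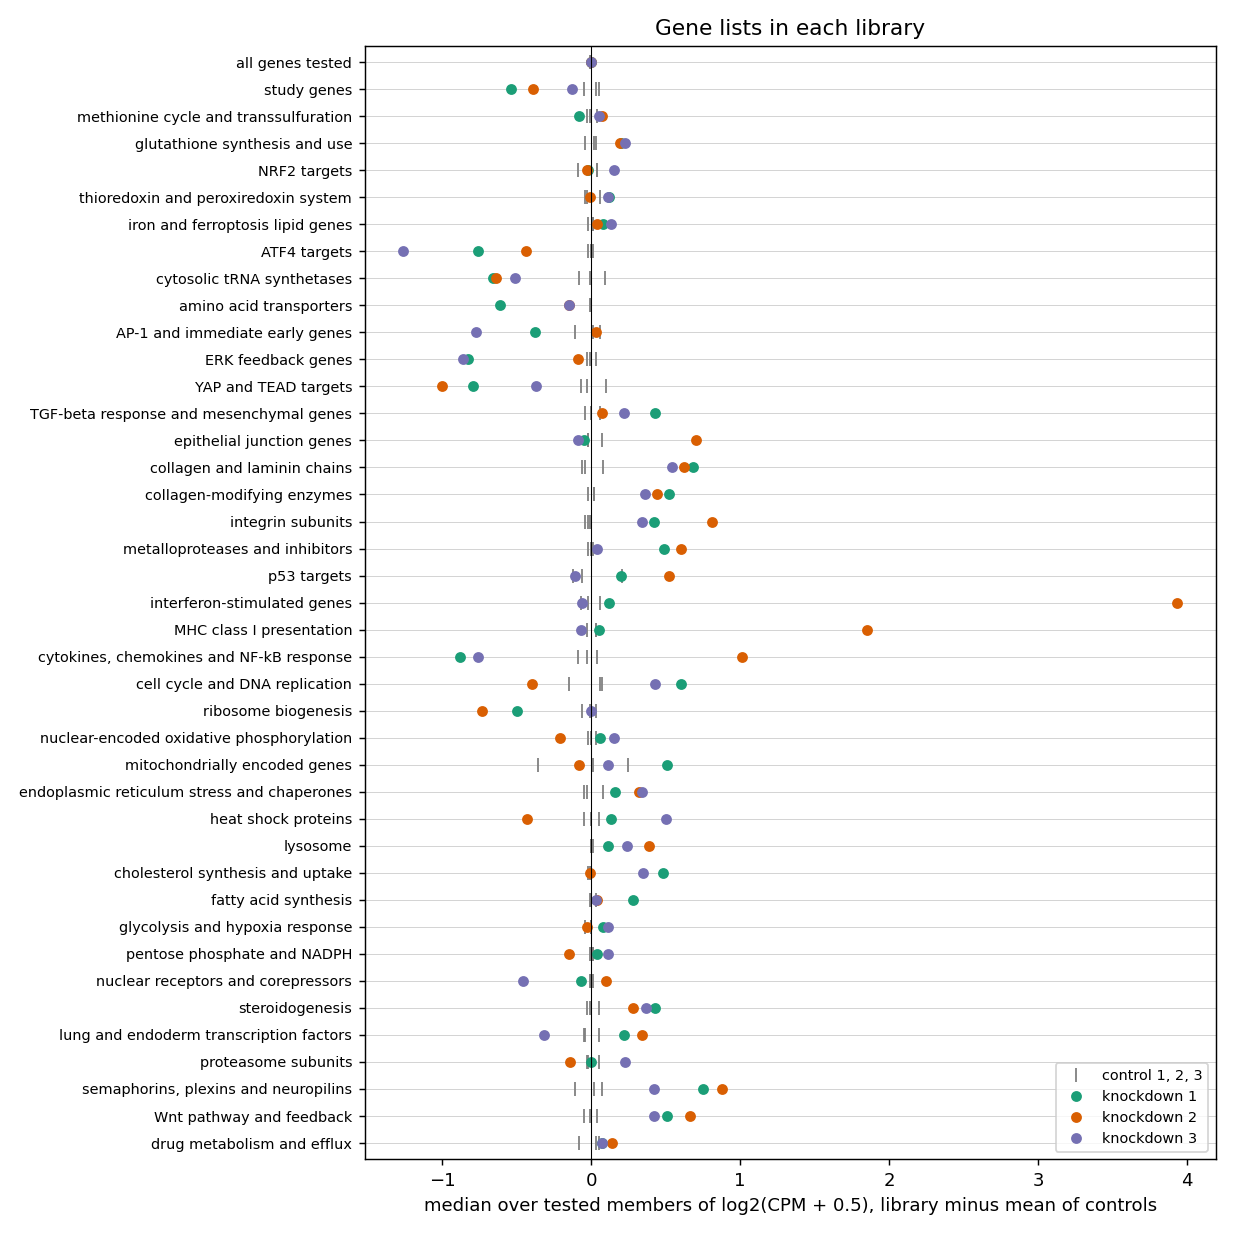
Median over the tested members of each gene list of the log2 difference from the control mean, log2(CPM + 0.5), for knockdown replicates 1 to 3 (coloured points) and the 3 controls (grey ticks). Interferon genes stand at 3.93 in replicate 2 against 0.12 and -0.06 in replicates 1 and 3, while matrix, tRNA synthetase and YAP target medians lie on the same side in all 3.

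Several other lists held few changes or changes in both directions. Oxidative phosphorylation genes encoded in the nucleus gave 3 higher and 0 lower of 50 (6%, against 12.4% of all genes called higher). NDUFS3, a complex I subunit, was at 40.5, 31.4 and 47.1 CPM against 16.4, 16.6 and 13.1 CPM. In this list 6 rose without knockdown replicate 2 and 1 without replicate 3 or any 1 of the knockdown controls. In it 2 fell without overexpression control replicate 1 and 1 without knockdown replicate 3. Proteasome subunits gave 3 higher and 0 lower of 31 (9.68%, against 12.4% of all genes called higher), with PSMB6 at 80.7, 72.3 and 96 CPM against 50.6, 47.2 and 35.2 CPM. Of these subunits 5 rose without knockdown replicate 2 and 1 without replicate 3 or any 1 of the overexpression libraries or knockdown controls. Of them 1 fell without overexpression control replicate 1 and 3 without knockdown replicate 3. Of 40 glycolysis and hypoxia genes 5 rose and 3 fell (20% called against 23.9% of all genes). Adrenomedullin, ADM, a vasodilator peptide induced by hypoxia, fell 3.87-fold, with 24.6, 21.1 and 30.6 CPM against 93, 82.8 and 119 CPM, and the kinase PFKFB4 rose to 6.22, 9.86 and 10.5 CPM from 3.28, 2.9 and 3.25 CPM. In that list 3 rose without knockdown control replicate 3 and 5 fell without knockdown replicate 2. Of 33 drug metabolism and efflux genes 5 rose and 5 fell (30.3% called against 23.9% of all genes). The efflux pump ABCC5 stood at 56.5, 48 and 46.8 CPM against 17.8, 19.6 and 14.8 CPM (log2 fold change 1.54 with SE 0.14, adjusted p = 8.43e-05) and AHR, the receptor for aromatic hydrocarbons, at 40.9, 83.7 and 44.2 CPM against 155, 146 and 157 CPM (log2 fold change -1.44 with SE 0.24, adjusted p = 0.00236). The rises numbered 3, 3 and 2 without control replicates 1 to 3, and the falls 3 without knockdown replicate 1 or control replicate 3.

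The position of the changed genes in the genome was examined after the values had been seen. Over 9414 genes at 10 CPM or more in the controls, the median log2 difference from the knockdown controls was highest on chromosome 9, at 0.184, 0.172 and 0.187 in knockdown replicates 1 to 3. Chromosomes 17 and 2 came next, and chromosomes 4, 5 and 6 had the lowest values, below 0 in all 3 libraries. On chromosome 9, 109 of 487 tested genes rose and 36 fell, which is 29.8% called, against 23.9% of all genes, 30.7% on chromosome 10 and 29% on chromosome X. The rise lay in the distal part of the long arm. In windows of 20 Mb (GENCODE 29, GRCh38, by gene start), the 154 genes from 120 to 140 Mb had medians of 0.309, 0.295 and 0.331 with 47 rises and 6 falls, and the 52 genes from 100 to 120 Mb had 0.236, 0.289 and 0.262. The 57 genes from 80 to 100 Mb had 0.215, 0.0844 and 0.266. The windows from 0 to 20 and from 60 to 80 Mb were below 0 in all 3 libraries, and that from 20 to 40 Mb lay between -0.0357 and 0.091. Of 146 windows with at least 20 genes, 3 had all knockdown medians above 0.2, the other being chromosome 2 from 80 to 100 Mb (0.219, 0.235 and 0.203), and 1 had all below -0.2, chromosome 4 from 140 to 160 Mb (-0.244, -0.291 and -0.375). TGFBR1 (chromosome 9, from 99104038 to 99154192) and COL5A1 (from 134641774 to 134844843) lie in the raised part, and each changed by more than its window's median. The overexpression control libraries were at -0.201, -0.0447 and -0.108 in the window from 120 to 140 Mb, on the other side of the knockdown controls.

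**Figure D5:**
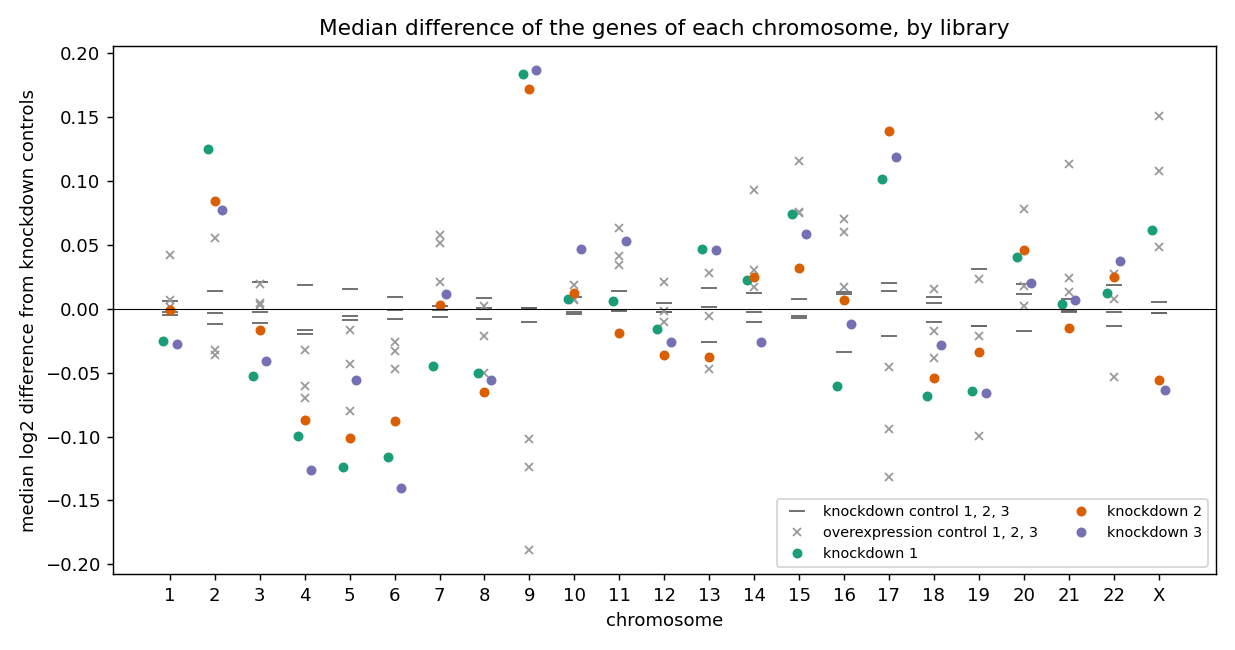
Median log2 difference from the mean of the knockdown controls for the genes of each chromosome with 10 CPM or more in those controls. Points are the 3 knockdown libraries, dashes the 3 knockdown controls and crosses the 3 overexpression controls. Chromosome 9 is at 0.172 to 0.187 in the knockdown libraries.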

How the data were processed

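Enriched mRNA libraries of A549 cells were sequenced. The authors deposited 1 table of expected counts and FPKM per transcript. RSEM, StringTie 1.3.1, Bowtie2 2.2.8, HISAT2 2.0.5 and fastp are listed per the submitters' processing notes, which also list the mouse build GRCm38, although the identifiers are human, and strand use in counting was not given in the sources used here. Here expected counts were summed over Ensembl transcripts by symbol and rounded, and assembled transcripts were left out (13.3 to 15.4% of counts per library).

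Genes at FPKM 1 or more in at least 3 of 12 libraries were tested in 1 fit of all 12 with edgeR 4.0.16 (TMM, robust quasi-likelihood, Benjamini-Hochberg over 11908 genes, called below 0.05; SE = size of the log2 fold change over the root of F). The fit was tested on simulated data. Alternatives used DESeq2 1.42.0 and limma 3.58.1. Genes were named by their group lists, the size, adjusted p or CPM difference of shared changes, or as examples chosen after their values were seen. Members and lists were chosen with earlier results of these data known. Deviations of same-numbered libraries from their group means correlated over genes at -0.00643, -0.0872 and -0.0591, against -0.0806 to 0.103 for the other pairs. The main fit did not pair them, although such values cannot exclude pairing by culture or batch. Gene positions come from GENCODE 29.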

Additional observations from a re-analysis of the deposited data

How the results depend on the processing

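NR0B1 kept its direction and call under all 21 alternatives, with log2 fold changes from -2.42 to -1.87 over the 12 leave-outs. The count of called genes ran from 1503 to 3435 over the leave-outs, that of higher genes from 731 to 1764, of lower genes from 772 to 1745 and of genes at 2-fold or more from 612 to 1070. Called genes with no overlap between the libraries left in each fit ran from 1503 to 3430. The 3430 came without knockdown replicate 2 and so were shared by replicates 1 and 3 only. Fewer libraries make this condition easier to meet. The lowest counts came without knockdown control replicate 3. With only the 6 knockdown arm libraries 1833 genes were called, 930 higher and 903 lower, and 1833 were shared by all 3 knockdown libraries; fewer samples give that fit fewer degrees of freedom. Without knockdown replicate 2 and overexpression control replicate 1 together 4494 were called, 2267 higher and 2227 lower, with 4479 shared by knockdown replicates 1 and 3. limma on log2(FPKM + 1) gave 544 genes at 2-fold or more; the cause was not tested. The fit with a replicate block within each arm called 2239 genes, and NR0B1 was at -2.08 (adjusted p = 0.0287). Of 65 counts of list members above 0, 56 moved by more than 1.5 times in some setting. Depth limits genes near 3 counts, which is 0.154 to 0.184 CPM.

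Genes with no call with all libraries changed sign in some settings. MDM2 was at -0.0928 with limma on log2(FPKM + 1), -0.0937 on log2(FPKM + 0.1), -0.00998 with no filter on low values, -0.0419 with the replicate block and -0.33 without knockdown replicate 2 and overexpression control replicate 1, and ran from -0.34 to 0.28 over the leave-outs. IFIH1 was at -0.0930 with the replicate block and -1.96 without that pair of libraries, where IFNB1 was at -2.56, IFNL1 and LAMP3 at -0.35 and SMAD7 at 0.0504, and SMAD7 was at 0.36 with the assembled transcripts added. Over the leave-outs BIRC3 ran from -0.93 to 0.34, CXCL8 from -2.21 to 0.45, GPX4 from -0.14 to 0.0409, IFIH1 from -1.96 to 3.40, IFNB1 from -2.56 to 6.77, IFNL1 from -0.35 to 8.46, LAMP3 from -0.36 to 3.57 and SMAD7 from -0.38 to 0.0470. The cause was not tested.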
